A study of Homo sapiens with 6 samples.

Results

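The ABC transporter genes of PC9 cells were examined, taken as every gene whose symbol is ABC followed by a subfamily letter from A to G and a number. Of the 16306 genes in the deposited gene table, 38 met this rule, and 30 of them had a mean of at least 10 counts over the 6 libraries. PC9 is an established line of human lung adenocarcinoma cells that carries an activating deletion in EGFR. The RNA-seq compared 3 samples expressing a non-targeting control shRNA, sh-NC, and 3 expressing one directed at RBM10, shRBM10. RBM10 is an RNA-binding protein that regulates splicing, and the comparison asks which transporter transcripts differ when it is depleted. The sources do not name which RBM10 shRNA the libraries carry, nor say that the samples came from separate cultures, so the p-values measure only the spread between these 6 samples. The shRBM10 libraries are called A, B and C, and only A could be tied to a numbered sample. In bulk RNA, fewer cells of a kind and less RNA per cell cannot be told apart.

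ABC transporters bind and hydrolyse ATP to move substrates across membranes, and their subfamilies divide the work. The ABCA and ABCG proteins mostly move sterols and phospholipids. ABCB1 (P-glycoprotein), several ABCC proteins and ABCG2 export drugs and conjugated metabolites, which is why they are known as multidrug carriers. ABCD proteins serve peroxisomes and lysosomes, and the ABCE and ABCF proteins carry the ATP-binding domains without a membrane part and act on ribosomes.

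The libraries held between 16606401 and 18864241 counts on genes. RBM10, the target, gave 77.9, 64.4 and 79.96 CPM (counts per 1000000, with library sizes scaled by edgeR's TMM factors) in the sh-NC replicates 1 to 3 and 29.2, 28.00 and 36.6 in the libraries A to C. All shRBM10 libraries were lower (exact two-sided permutation p = 0.1, the smallest that 3 against 3 allow), with a log2 fold change of -1.24 and a standard error (SE) of 0.23, and edgeR's adjusted p of 0.1 missed the threshold. On length-scaled CPM (the count divided by gene length and rescaled to the same total in each library, without TMM factors) the groups overlapped for RBM10, at 14.493 in sh-NC replicate 2 and 14.549 in library C. Leaving out sh-NC replicate 2 made the log2 fold change -1.42 with an adjusted p of 0.0487 in edgeR, within 0.00154 to 0.454 over all its alternatives. That replicate stood apart from the others: its log2 CPM correlated with theirs across genes at 0.867 to 0.947, and its TMM factor was 0.738. The sh-NC replicates 1 and 3 correlated at 0.996, so without replicate 2 an edgeR p rests on a narrow spread within sh-NC. Library A correlated with sh-NC replicates 1 and 3 at 0.943 and 0.942, no higher than replicate 2 did. Library C correlated with them at 0.986, above its 0.949 with library A and 0.971 with library B. Libraries B and C were placed in shRBM10 by their column names. Libraries A and B differed from library C as well, by a trend of the counts on the GC content of the transcripts that is described with the results it touches. Fold changes are therefore also given from an edgeR fit in which each library's trend on GC content was removed by an offset. The epithelial markers EPCAM, KRT7, KRT8, KRT18 and KRT19 were abundant in every library. The lung-lineage markers NKX2-1, SFTPB and SFTPC had 3.15 counts or fewer, and NAPSA had 9 to 17. EGFR and CDH1, also listed, were uneven, at 1890 and 1224 counts in sh-NC replicate 2. In the other libraries EGFR had 11026 to 14601 counts and CDH1 3111 to 4373. A protocol in the labels mentions retinas, but of 6 retinal markers 4 were listed and only NRL reached a mean of 10 counts, and the list summed to 4.76 to 8.79 CPM in sh-NC and 3.75 to 4.55 in shRBM10. The 4 endothelial markers, all listed, summed to 5.44 to 10.2 CPM in sh-NC and 2.68 to 3.75 in shRBM10, with PECAM1 at 1 to 3 counts and CLDN5 at 0 or 1. CDH5, counted 177, 61 and 176 times with sh-NC but 40, 62 and 57 times with shRBM10, and VWF made up most of that sum, with log2 fold changes of -1.38 and -1.31 (unadjusted edgeR p of 0.00283 and 0.00919). The retinal and endothelial sums were lower in shRBM10. The fibroblast sum was 2.24 to 5.58 CPM in sh-NC and 5.42 to 9.72 in shRBM10, and the hepatocyte sum was at most 0.209. The leukocyte sum was 102 to 182 CPM in sh-NC and 98.9 to 127 in shRBM10, with CD68 at 1795 to 2442 counts and PTPRC at 0 to 7. The part of these markers in the results was not tested.

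No ABC transporter gene passed the test of shRBM10 against sh-NC in edgeR. The rule for a call was an edgeR p under 0.05 after Benjamini-Hochberg adjustment over all 12620 genes tested, together with an absolute log2 fold change over 1. By that rule 0 of the 30 genes were called in edgeR, and 0 in limma-voom, beside 0.0158% of all genes. When the p was left unadjusted and the fold limit kept, 5 of the 30 were higher in shRBM10 (ABCA1, ABCA5, ABCC4, ABCC9 and ABCD3) and 0 lower, beside 10.1% of all genes higher and 1.53% lower. Leaving out a single library, a setting chosen after seeing the data, moved that 5 to between 2 (without library A) and 7 (without library C, 6 of them higher). Over all genes, 574 of 12716 (424 higher) passed without library A and 2143 of 12743 (1722 higher) without library C. At the unadjusted p alone, 7 of the 30 were higher and 3 lower, beside 15.7% and 8.6% of all genes. DESeq2 called 1 of the 30, ABCA1, higher, beside 4.72% of all genes called, 3.73% higher and 0.998% lower. Without sh-NC replicate 2, 3 of the 30 were past the unadjusted p and the fold limit in edgeR, all higher (ABCA1, ABCC9 and ABCG2), beside 6.35% of all genes, 4.81% higher and 1.54% lower. In edgeR, 19 of the 30 log2 fold changes were above 0, beside 6514 of all 12620 genes. Their median was 0.22 against 0.03 over all genes. Without sh-NC replicate 2, 16 of the 30 were above 0, beside 6552 of 12795 genes, with medians of 0.06 and 0.02. On CPM with TMM factors, the 2 groups of libraries did not overlap for 6 genes that were higher in shRBM10 (among them ABCA1, ABCC2, ABCC3, ABCC9 and ABCD3), beside 13.8% of all genes, and for 5 that were lower (ABCA3, ABCA4, ABCB9, ABCF2 and ABCF3), beside 16.2%. These counts depend on the scale: on length-scaled CPM, a comparison added after seeing the data, the groups did not overlap for 4 genes that were higher (ABCA1, ABCC9 and ABCG1 among them), beside 16.2% of all genes, and for 0 that were lower, beside 6.77%. ABCC2, ABCC3, ABCD3 and those 5 lower genes overlapped on that scale, so their groups were apart on CPM alone.

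**Figure D1:**
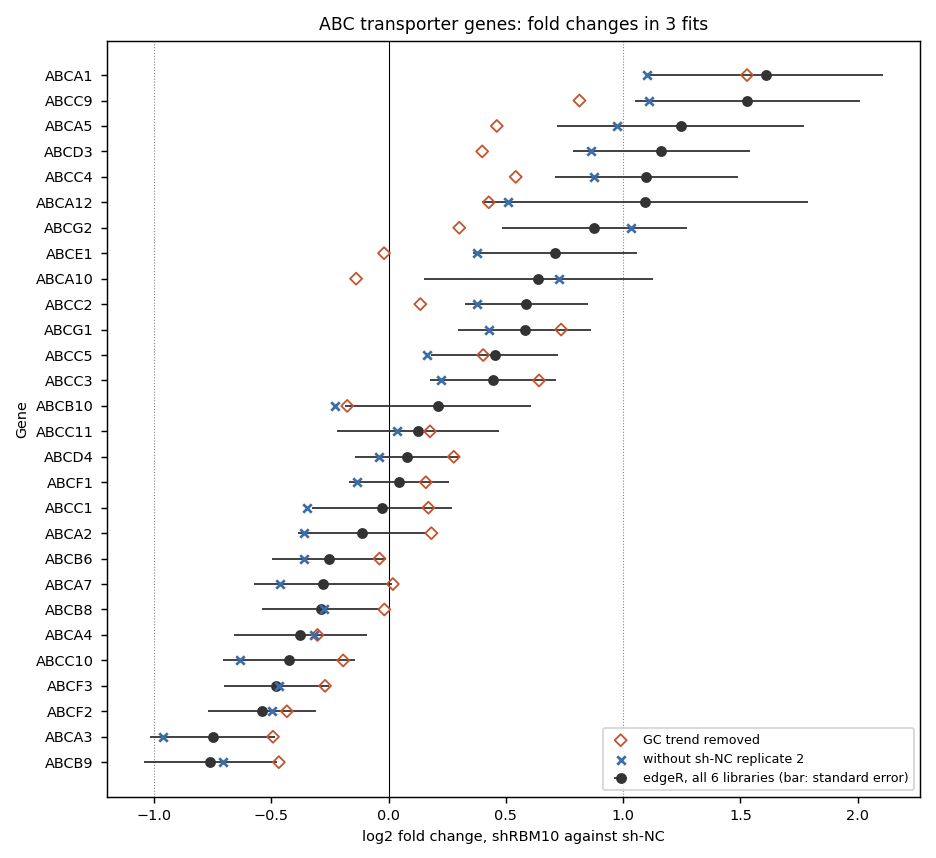
Log2 fold change of 28 of the 30 ABC transporter genes (x axis) by gene (y axis). Black points and bars are edgeR's estimate with its standard error from all 6 libraries, red diamonds the estimate after each library's GC trend was removed, and blue crosses the estimate without sh-NC replicate 2. The rightmost black point is ABCA1 at 1.61, and the diamonds of ABCE1 and ABCA10 lie below 0 while their black points lie above it.

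P-glycoprotein, the drug pump that also guards the blood-brain barrier, was near silent at the RNA level. ABCB1 (chromosome 7, 87503633 to 87713323 on the minus strand of GRCh38) was counted 0, 1 and 0 times in the sh-NC replicates 1 to 3, and 0 times in each shRBM10 library. A count of 0 allows up to 0.156 to 0.168 CPM in the shRBM10 libraries and 0.147 to 0.148 CPM in sh-NC replicates 1 and 3 (3 counts per library, counting error only). A difference in ABCB1 below these levels was therefore not detectable at this depth, and no fold change is given. The other genes under a mean of 10 counts were ABCA9, ABCA13, ABCB4 (the phosphatidylcholine transporter of bile), ABCB5, ABCB11 (the bile salt export pump), ABCC6 and ABCG4, which makes 8 of 38 with ABCB1. None of the 8 had more than 11.05 counts in any library. ABCC6 was counted 3 times in each sh-NC library and 7, 9 and 7 times in libraries A to C, too few to be tested.

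Promoter sequences are shown for ABCB1, the silent pump, for ABCA1, the gene with the largest fold change, and for ABCC4 and ABCA3, which differed in opposite directions at an unadjusted p under 0.05. Each is the 250 bases before 1 RefSeq start of the gene on GRCh38.p14, on the minus strand, with ABCB1 at chr7:87600885-87601134, ABCA1 at chr9:104928156-104928405, ABCC4 at chr13:95301452-95301701 and ABCA3 at chr16:2340729-2340978. Capitals mark GC boxes with the letters GGGCGG. They also mark boxes spelled CCAAT and, near the end of the ABCA1 window, a direct repeat of the kind bound by the liver X receptors, each searched on both strands and none overlapping another.
ABCB1: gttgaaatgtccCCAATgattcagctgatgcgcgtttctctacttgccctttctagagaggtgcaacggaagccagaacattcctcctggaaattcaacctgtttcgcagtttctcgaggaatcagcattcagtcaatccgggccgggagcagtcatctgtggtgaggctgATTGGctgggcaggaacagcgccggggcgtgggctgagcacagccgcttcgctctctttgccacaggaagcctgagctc
ABCA1: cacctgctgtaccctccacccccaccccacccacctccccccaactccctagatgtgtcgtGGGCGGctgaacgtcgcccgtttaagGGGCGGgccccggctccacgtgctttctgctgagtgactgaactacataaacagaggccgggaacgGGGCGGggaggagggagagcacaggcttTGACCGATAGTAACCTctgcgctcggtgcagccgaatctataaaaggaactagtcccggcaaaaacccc
ABCC4: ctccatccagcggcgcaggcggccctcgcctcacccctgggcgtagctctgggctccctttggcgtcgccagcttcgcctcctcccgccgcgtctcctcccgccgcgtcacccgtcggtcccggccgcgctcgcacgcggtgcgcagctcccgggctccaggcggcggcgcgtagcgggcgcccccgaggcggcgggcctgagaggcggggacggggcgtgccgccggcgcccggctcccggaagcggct
ABCA3: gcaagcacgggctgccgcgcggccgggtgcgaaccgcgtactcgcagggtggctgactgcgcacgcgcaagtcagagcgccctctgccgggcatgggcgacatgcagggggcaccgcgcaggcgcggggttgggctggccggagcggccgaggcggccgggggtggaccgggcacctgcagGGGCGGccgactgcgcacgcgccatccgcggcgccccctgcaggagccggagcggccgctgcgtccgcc
The ABCB1 window held 2 CCAAT boxes, the ABCA1 window 3 GC boxes and 1 repeat, the ABCA3 window 1 GC box, and the ABCC4 window none of the 3 motifs. Among all 35116 RefSeq promoters, 42.64% held a GC box, 32.01% a CCAAT box and 0.08% the repeat, which was searched for after the ABCA1 sequence had been read. RefSeq entries were matched for 30 of the 38 genes, in 45 entries, of which 53.33% held a GC box and 17.78% a CCAAT box. A match describes letters and not a bound site. The ABCC4 and ABCA3 windows were alike in GC content, at 80.4% and 79.2%.

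ABCG2, the breast cancer resistance protein, was measured at 18.6, 31.6 and 21.7 CPM in sh-NC replicates 1 to 3 and 65.8, 44.5 and 21.4 CPM in libraries A to C. Libraries A and B lay above every sh-NC library and library C lay among them, so the groups overlapped. Its log2 fold change was 0.88 (SE 0.39, adjusted p = 0.207) in edgeR and did not pass. With the GC trend removed it was 0.30. Its length-scaled CPM was 7.91 ± 1.11 in sh-NC and 17.9 ± 10.01 in shRBM10 (SD, n = 3 each). Different genes are compared here on this scale alone, apart from a share of counts given for the ABCC genes.

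The ABCC genes took 41.9% to 57.0% of the counts of all ABC transporter genes in each library, a share of counts not scaled by gene length. ABCC3 (MRP3), which exports glucuronide conjugates across the basolateral membrane, was the most abundant member, with a length-scaled CPM of 68.4 ± 30.7 in sh-NC and 102 ± 24.1 in shRBM10 (SD, n = 3 each). It was measured at 342, 248 and 344 CPM in sh-NC and 381, 345 and 544 CPM in shRBM10. On CPM all shRBM10 libraries lay above all sh-NC libraries, although library B (345.04) and sh-NC replicate 3 (343.98) were nearly level. It had a log2 fold change of 0.44 (SE 0.27, adjusted p = 0.306), and 0.64 with the GC trend removed. ABCC2 (MRP2), the apical exporter of bilirubin glucuronides, stood at rank 3, with a length-scaled CPM of 33.1 ± 15.1 in sh-NC and 55.3 ± 18.1 in shRBM10 (SD, n = 3 each). ABCC2 had 156, 129.7 and 189 CPM in sh-NC and 308, 208 and 197 CPM in shRBM10, and its groups did not overlap on CPM. It had a log2 fold change of 0.59 (SE 0.26, adjusted p = 0.205), with an unadjusted p of 0.0499, and 0.14 with the GC trend removed.

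ABCC1 (MRP1), which exports glutathione conjugates and leukotriene C4, was measured at 173, 96.4 and 185 CPM in sh-NC and 137, 119.8 and 189 CPM in shRBM10. The groups overlapped, with sh-NC replicate 2 the lowest library, and the log2 fold change was -0.03 (SE 0.30, adjusted p = 0.96). ABCC5 (MRP5), a carrier of cyclic nucleotides, had 95.2, 60.3 and 105 CPM in sh-NC and 133, 92.7 and 131 CPM in shRBM10. Only libraries A and C lay above the sh-NC range, and the log2 fold change of ABCC5 was 0.45 (SE 0.27, adjusted p = 0.302). ABCC4 (MRP4), which carries cyclic nucleotides and prostaglandins, was measured at 15.4, 11.03 and 14.7 CPM in sh-NC and 44.8, 28.8 and 14.6 CPM in shRBM10. As for ABCG2, libraries A and B were high and library C was within the sh-NC range. The log2 fold change came to 1.10 (SE 0.39, adjusted p = 0.169), and 0.54 with the GC trend removed. ABCC10 (MRP7) had 34.01, 24.4 and 31.97 CPM in sh-NC and 19.2, 18.6 and 29.6 CPM in shRBM10, and library C again lay within the sh-NC range. This gave a log2 fold change of -0.42 (SE 0.28, adjusted p = 0.341).

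The 2 other ABCC genes with a mean of at least 10 counts were rare. ABCC9 encodes SUR2, the regulatory subunit of an ATP-sensitive potassium channel, and not a drug carrier. Its estimated counts were 38.52, 6.55 and 26.04 with sh-NC, and 96.69, 62.82 and 44.64 with shRBM10, so every shRBM10 library was above every sh-NC library at small counts. Its log2 fold change was 1.53 (SE 0.48, adjusted p = 0.156), and 0.81 with the GC trend removed. Of the channel pore genes that pair with it, KCNJ8 had 0 or 1 count, and KCNJ11 had a log2 fold change of -0.82 (adjusted p = 0.192 in edgeR). ABCC11, known for its variant in earwax type, had 0.740, 0.969 and 1.23 CPM in sh-NC and 1.17, 0.991 and 1.05 CPM in shRBM10. Those groups overlapped, and the log2 fold change was 0.13 (SE 0.35). Over the 8 ABCC genes with a mean of at least 10 counts, 6 log2 fold changes were above 0 and 2 below, with a median of 0.45, and 0.29 with the GC trend removed.

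**Figure D2:**
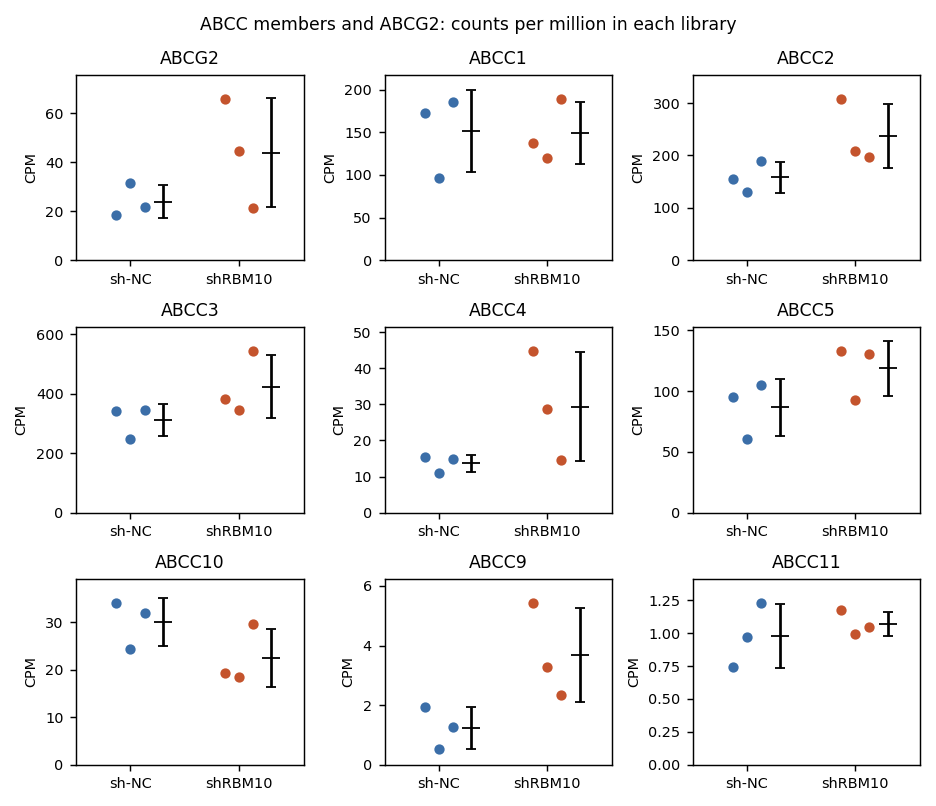
CPM (y axis, from 0) of ABCG2 and the ABCC genes in the 3 sh-NC and 3 shRBM10 libraries. Dots are libraries, in the order replicates 1 to 3 and A to C, and black marks the mean with its SD. ABCG2 and ABCC4 show libraries A and B above all sh-NC libraries and library C beside them, and ABCC3 reaches 544 CPM in library C.

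The sterol and phospholipid carriers included ABCA1, the only member called by DESeq2. ABCA1, which loads cholesterol and phospholipid onto apolipoprotein A-I (chromosome 9, 104781002 to 104928237 on the minus strand of GRCh38), was measured at 11.5, 2.53 and 10.5 CPM in sh-NC and 30.7, 28.1 and 16.5 CPM in shRBM10. All 3 shRBM10 libraries were above all 3 sh-NC libraries, and sh-NC replicate 2, with 34 counts, was far below its partners at 233 and 214. The log2 fold change came to 1.61 (SE 0.50, adjusted p = 0.156) in edgeR, and 1.58 with an adjusted p of 0.0295 in DESeq2. It was 1.10 without sh-NC replicate 2 and 1.53 with the GC trend removed. With both changes made together it was 1.10 with an edgeR adjusted p of 0.0363. ABCA1 was then the 1 gene of the 30 called, beside 2.06% of all genes, 1.36% higher and 0.699% lower. The sh-NC libraries left in that fit, replicates 1 and 3, correlated at 0.996, so this p rests on a narrow sh-NC spread. Over all its alternatives the adjusted p of ABCA1 ran from 0.0295 to 0.566. ABCA1 had a middling GC content of 49.62%. ABCG1, which passes cholesterol to high-density lipoprotein, overlapped between the groups on CPM, with 14.5, 10.96 and 11.3 CPM in sh-NC and 14.4, 18.1 and 22.5 CPM in shRBM10, where library A was among the sh-NC values. It had a log2 fold change of 0.58 (SE 0.28, adjusted p = 0.23), and 0.74 with the GC trend removed.

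The liver X receptors, which switch on ABCA1 and ABCG1 in response to oxysterols, had negative fold changes with all 6 libraries that did not pass. Of 10 genes listed for sterol export and its nuclear receptors, 9 were tested, 0 were called, 2 log2 fold changes were above 0, and at an unadjusted p under 0.05 there were 0 higher and 3 lower (NR1H3 and RXRB among them), beside 15.7% of all genes higher and 8.6% lower. The repeat in capitals in the ABCA1 promoter is of the kind these receptors bind. NR1H3, the liver X receptor alpha, had a log2 fold change of -0.78 (adjusted p = 0.175) and NR1H2, the beta receptor, of -0.42 (adjusted p = 0.301). Both values are from edgeR. With the GC trend removed NR1H3 had -0.50 and NR1H2 -0.10, and without sh-NC replicate 2 as well they had -0.21 and 0.08. With the GC trend removed, 0 of the 9 passed an unadjusted p of 0.05, beside 8.56% of all genes higher and 9.83% lower.

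Among the remaining ABCA genes, ABCA3 had the lowest fold change. ABCA3, the lamellar body phospholipid carrier of alveolar type II cells, had 62.9, 45.7 and 60.5 CPM in sh-NC and 27.8, 28.8 and 43.9 CPM in shRBM10. The groups did not overlap on CPM, since library C at its 43.9 CPM lay just under sh-NC replicate 2 at 45.7. The log2 fold change came to -0.75 (SE 0.27, adjusted p = 0.169), and -0.49 with the GC trend removed. ABCA4, the retinoid flippase of photoreceptors, had 5.87, 7.75 and 5.99 CPM in sh-NC and 4.69, 4.75 and 5.65 CPM in shRBM10. Its groups were close but did not overlap on CPM, and its log2 fold change was -0.38 (SE 0.28, adjusted p = 0.397). ABCA5 was counted 28, 8 and 12 times with sh-NC, and 60, 37 and 18 times with shRBM10, with library C inside the sh-NC range. This gave a log2 fold change of 1.24 (SE 0.53, adjusted p = 0.194), and 0.46 with the GC trend removed. ABCA12, which carries glucosylceramide in keratinocytes, ranged from 1.34 to 13.2 CPM within sh-NC alone and had a log2 fold change of 1.09 (SE 0.70, adjusted p = 0.326). ABCA2, ABCA7 and ABCA10 had log2 fold changes of -0.11, -0.28 and 0.64, each of which had the opposite sign with the GC trend removed. With sh-NC replicate 2 left out as well they were -0.011, -0.11 and 0.19, with the first signs again.

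ABCB6, ABCB8 and ABCB10, which are mitochondrial members, had log2 fold changes of -0.25, -0.29 and 0.21, and their groups overlapped. Of 8 iron and heme genes that work beside them, 0 were called and 0 passed an unadjusted p of 0.05 in edgeR, beside 24.3% of all genes. ABCB9, a lysosomal peptide carrier, had 14.3, 19.4 and 15.6 CPM in sh-NC and 8.94, 8.24 and 11.9 CPM in shRBM10. All shRBM10 libraries were lower on CPM, and the log2 fold change was -0.76 (SE 0.28, adjusted p = 0.173), or -0.47 with the GC trend removed. TAP1 and TAP2, the related peptide carriers of the endoplasmic reticulum, had 0.13 (adjusted p = 0.726) and -0.52 (adjusted p = 0.209) in edgeR.

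Peroxisomal ABCD3 (PMP70), which imports branched-chain and bile acid intermediates, was measured at 12.7, 7.30 and 12.4 CPM in sh-NC and 32.1, 27.3 and 13.5 CPM in shRBM10. Library C lay just above sh-NC replicate 1, so the groups did not overlap on CPM, by a narrow margin. Its log2 fold change was 1.16 (SE 0.38, adjusted p = 0.156), and 0.40 with the GC trend removed. ABCD4, which serves lysosomal cobalamin release, had a log2 fold change of 0.08. Of 6 peroxisomal import partners, 0 were called in edgeR and 3 were higher at an unadjusted p under 0.05, beside 15.7% of all genes. PEX3, which inserts peroxisomal membrane proteins, had 1.11 (edgeR adjusted p = 0.153) and was called higher by DESeq2 (adjusted p = 0.0374), as were 3.73% of all genes. Its log2 fold change was 0.35 with the GC trend removed, and did not pass an unadjusted p of 0.05. In that fit 1 other of the 6 was higher at this p, beside 8.56% of all genes.

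The ribosome-acting members also had fold changes of both signs. ABCE1, which splits ribosomes for recycling, had a log2 fold change of 0.71 (SE 0.35, adjusted p = 0.232), and -0.02 with the GC trend removed. ABCF2 had 106, 139 and 113 CPM in sh-NC and 67.6, 84.8 and 93.8 CPM in shRBM10. ABCF2 was lower in every shRBM10 library on CPM, with a log2 fold change of -0.54 (SE 0.23, adjusted p = 0.194). It shares its locus with the readthrough gene ABCF2-H2BE1, which had -0.38 (adjusted p = 0.311) in edgeR, and reads of the shared exons could be divided between both. ABCF3 had 96.5, 116 and 97.5 CPM in sh-NC and 66.3, 67.2 and 89.2 CPM in shRBM10. On CPM it too was lower in every shRBM10 library, with -0.48 (SE 0.22, adjusted p = 0.217). On length-scaled CPM, sh-NC replicate 2 at 36.9 lay below all 3 shRBM10 libraries. ABCF1, a regulator of translation initiation, had 91.5, 75.2 and 95.4 CPM in sh-NC and 80.2, 96.9 and 93.3 CPM in shRBM10, and its groups overlapped at a log2 fold change of 0.04 (SE 0.21). Of 9 ribosome recycling and translation partners, 0 were called and 5 were higher at an unadjusted p under 0.05, beside 15.7% of all genes. After removal of the GC trend there were 0 higher and 1 lower, beside 8.56% and 9.83% of all genes.

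Drug-response regulators gave no called gene. Of 10 xenobiotic receptors and other efflux genes, 8 were tested, and at an unadjusted p under 0.05 there was 1 higher, AHR, and 1 lower, SLC47A1, beside 15.7% and 8.6% of all genes. NFE2L2, which drives several ABCC genes, had a log2 fold change of 0.91 (adjusted p = 0.229), and AHR had 0.84 (adjusted p = 0.194), both in edgeR. With the GC trend removed they were 0.37 and 0.14.

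By length-scaled CPM, the order of the members was led by ABCC3 at a mean of 85.1 over the 6 libraries, followed by ABCF3 at 46.97, ABCC2 at 44.2, ABCF1 at 33.9, ABCC5 at 30.4 and ABCC1 at 29.95. ABCC3 was above 91.8% of the 15976 genes with a level. Its neighbour ABCF3 had 51.2 ± 12.4 in sh-NC and 42.7 ± 6.63 in shRBM10 (SD, n = 3 each), against 68.4 and 102 for ABCC3. Any pair of ABCF1, ABCC5 and ABCC1 differed by less than the larger SD of the pair in both groups. Between these and ABCG2, at rank 12 with 12.9, lay ABCF2 at 27.2, ABCD4 at 25.9, ABCB8 at 21.03 and ABCB6 at 19.2. Below ABCG2 came ABCE1 at 9.96, ABCA3 at 8.44, ABCC10 at 7.07, ABCD3 at 6.93, ABCA2 at 6.89, ABCG1 at 6.23, ABCB10 at 5.99, ABCC4 at 5.22, ABCB9 at 4.72 and ABCA7 at 3.13. ABCA1 at 2.08, ABCA12 at 1.95, ABCA4 at 0.947, ABCC9 at 0.386, ABCA5 at 0.221, ABCC11 at 0.215 and ABCA10 at 0.156 were the lowest of the 30. The sum over all members was 239.77 in sh-NC replicate 2 and 456.43 to 568.93 in the other libraries, so that replicate was the lowest in the sum.

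**Figure D3:**
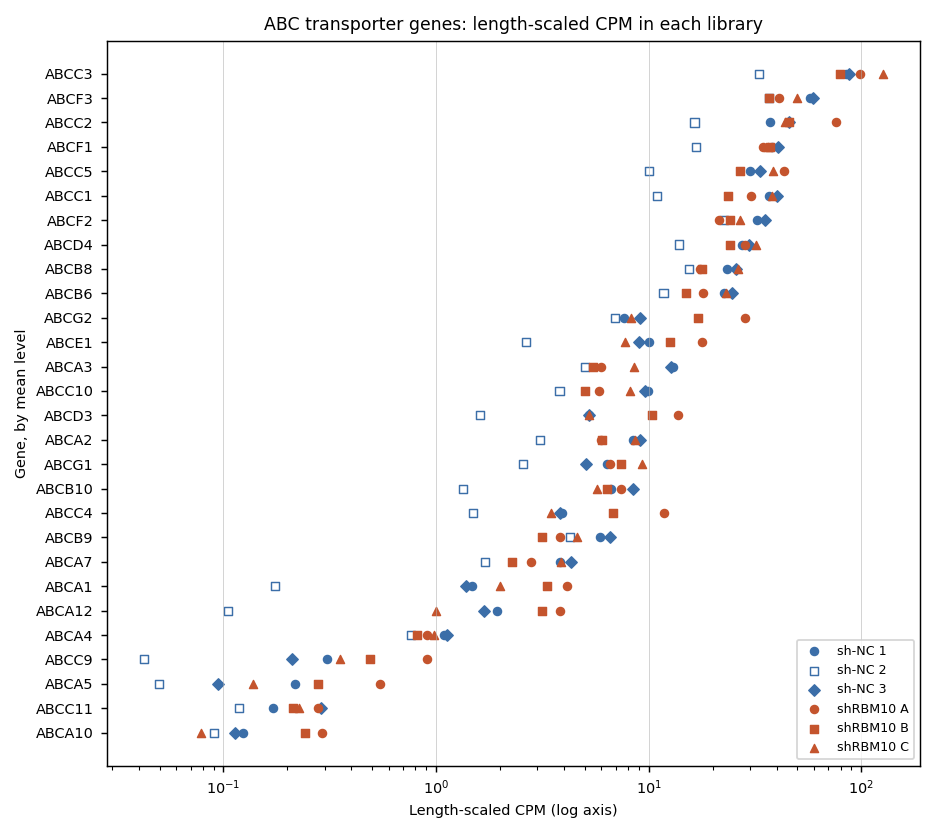
Length-scaled CPM of 28 of the 30 genes in each library on a log axis, ordered by mean from ABCC3 at the top. Blue is sh-NC, with open squares for replicate 2, and red is shRBM10. The open squares lie to the left for most genes, and the red points of ABCA1 and ABCC9 lie to the right of the blue ones.

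The fold changes followed the GC content of the transcripts. All 10 members with a GC content under 45% had a log2 fold change above 0, with a median of 0.98, and of the 12 over 55% only 3 did, with a median of -0.27. The same held over the table: of the 3789 genes under 45%, 3233 were above 0, with a median of 0.69. Of the 4425 over 55%, 969 were above 0, with a median of -0.30. Spearman's correlation of GC content with log2 fold change was -0.79 over the 30 members and -0.60 over 12558 genes, given as descriptions since the genes share the same 6 libraries. Against the mean of sh-NC, the members under 45% had median log2 differences of 1.52 in library A, 0.90 in library B and 0.18 in library C. The sh-NC replicates 1 to 3 had 0.22, -0.28 and 0.12 for the same genes. The trend was thus in libraries A and B, and library C lay within the sh-NC range. After each library's trend was removed, the correlation was -0.32 over the members and -0.01 over all genes, 1 of the 30 (ABCA1) passed an unadjusted p under 0.05 with the fold limit, beside 2.55% of all genes higher and 2.21% lower, and 5 were higher and 3 lower at that p alone, beside 8.56% and 9.83% of all genes. Those 5 included ABCA1, ABCC3, ABCC9 and ABCG1, and the 3 lower were ABCA3, ABCB9 and ABCF2. The GC content of the promoters, taken at the most GC-rich RefSeq start of each gene, did not track the fold change in this way. Over the 24 members with a RefSeq promoter, its correlation was -0.17, against -0.84 for the transcripts of the same genes. The source of the GC trend was not tested.

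Since RBM10 regulates splicing, the division of each gene's counts between its transcripts was tested as well. Of 23 members with 2 or more transcripts tested, 0 were called at an adjusted Simes p under 0.05 (edgeR's diffSpliceDGE), beside 0.0958% of genes, and 1 had an unadjusted Simes p under 0.05, beside 2.74%. That gene was ABCC9, with a Simes p of 0.0134 and an edgeR adjusted p of 0.809. Its transcript NM_001377273 had 0 counts in each sh-NC library and 23.56, 14.5 and 12.55 in libraries A to C, or 24.4%, 23.1% and 28.1% of the gene's counts. With 6.55 to 38.52 counts for the whole gene in sh-NC, a share of this size rests on few reads. ABCD4 and ABCB9, the next by p, had Simes p of 0.191 and 0.213 and adjusted p of 1 in edgeR. In the transcript table only 41.09% of the estimated counts are whole numbers, so these are estimates of how shared reads divide.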

How the data were processed

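RNA-seq of 6 PC9 libraries was analysed from the deposited tables, one of genes and one of transcripts. The authors deposited estimated counts per library, sequenced at BGI-Tech. The notes of the submitters name hg38, and the aligner, counter and annotation are not given in the sources used here. The authors' FPKM of the 4 libraries tied to a sample served only to estimate gene length. Of the per-sample columns, 32 were not used, and neither were 8 group-mean columns in each table.

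Estimated counts were rounded, filtered with filterByExpr, and scaled by TMM factors, and all 6 libraries entered edgeR's quasi-likelihood fit (version 4.0.16, beside limma 3.58.1, in R 4.3.3) with no covariate. DESeq2 1.42.0, limma-voom, other scalings and filters, leaving out each library, and removal of each library's GC trend (lowess, span 0.3) were alternatives. A GC content was had for 99.51% of these genes. Named were the members, with values in every library for the multidrug carriers, RBM10, the 8 others with the smallest edgeR p, the 6 with the highest level per length and those whose groups did not overlap, and the 3 members with the smallest Simes p. Some members and related genes that this rule would name are not reported here. ABCG1 values were added after they had been seen. The members and gene lists were chosen with earlier results of these data known. The scripts were tested on simulated data.

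Coordinates are from GENCODE 29 on GRCh38 and promoters from RefSeq GRCh38.p14. With 16606401 to 18864241 counts per library, floors and shares cover counting error only.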

Additional observations from a re-analysis of the deposited data

How the results depend on the processing

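The count of called ABC transporter genes was 0 by edgeR with all 6 libraries and 1 by DESeq2, and 0 without each library in turn. At the unadjusted p with the fold limit it was 5, which became 1 with the GC trend removed, 6, 3 and 4 without sh-NC replicates 1, 2 and 3, and 2, 4 and 7 without libraries A, B and C. Over all 12558 to 12795 genes tested, the same order gave 1465, 597 with the GC trend removed, 2034, 813 and 1900, and 574, 1060 and 2143. These combinations with the unadjusted threshold were chosen after seeing the data. With the GC trend removed and without sh-NC replicate 2, also chosen after seeing the data, 1 was called. On length-scaled CPM without TMM factors, the genes whose groups did not overlap were 4 higher in place of 6 and 0 lower in place of 5. Of the related pathway genes, DESeq2 called 1 where edgeR called 0. Over the whole table the 2 called genes became 573 by DESeq2, 31 with no filter on low counts, 0 with library size only, 1 with the GC trend removed, 262 with that and without sh-NC replicate 2, 1465 at the unadjusted p with the fold limit, and 0 to 23 when a library was left out. Of those 1465, 1272 were higher and 193 lower, against 320 and 277 with the GC trend removed. RBM10 passed by DESeq2 (-1.26), without sh-NC replicate 2 (-1.42) and with the GC trend removed as well (-1.09), and was -1.43 to -1.17 when a library was left out. ABCA1 passed by DESeq2 (1.58) and with the GC trend removed without sh-NC replicate 2 (1.10). Each fit without sh-NC replicate 2 took its sh-NC spread from replicates 1 and 3 alone.

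Some fold changes turned sign, and since no member had passed in edgeR with all 6 libraries, none of these had passed there. With the GC trend removed ABCA10 was -0.14, ABCA2 0.18, ABCA7 0.018, ABCB10 -0.18, ABCC1 0.17 and ABCE1 -0.019. Without sh-NC replicate 2 as well, ABCA12 was -0.032, ABCB10 -0.53, ABCB8 0.035 and ABCE1 -0.15. ABCC1 was 0.0058 by limma-voom, 9e-04 with upper-quartile factors and 0.034 with library size only. Leaving out a library gave ABCA2 -0.39 to 0.024, ABCB10 -0.23 to 0.55, ABCC1 -0.35 to 0.14, ABCC11 -0.051 to 0.33, ABCD4 -0.10 to 0.15 and ABCF1 -0.13 to 0.12. The cause was not tested. With library size only the median over all genes was 0.16 in place of 0.03. Changes in transcript usage stayed at 0 called members under each alternative run. No paired analysis was possible because the columns of the groups share only 1 replicate number.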
